A study of Mus musculus with 6 samples.

Results

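Chemokine ligands and the classical chemokine receptors were followed in lymphatic endothelial cells (LECs) from healthy skin and from tumours. The members were all genes whose single symbol on the array platform begins with Ccl, Cxcl, Ccr or Cxcr and a digit, together with Cx3cl1, Xcl1 and Xcr1. This gave 49 of the 18193 measured genes, 33 ligands and 16 receptors, which were read by 76 of the 45037 tested probe sets. One group held 3 LEC samples taken from mammary skin that was healthy, in balb-c/nude mice. The other held 3 samples of LECs from MDA-MB-435 xenografts, excised 8 weeks after subcutaneous injection of this human line, which served for years as a model of breast cancer and was later assigned to melanoma. Sections were stained briefly for LYVE-1, which binds hyaluronan on lymphatic endothelium, and the cells were cut out by laser capture, and each sample was amplified once and put on 1 mouse expression array. Nude mice lack the thymus and therefore most T cells, while macrophages, dendritic cells and NK cells remain. Samples are labelled as biological replicates, with neither the animals nor their age given, so the p-values measure the spread between these samples.

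Chemokines are small secreted proteins that bind to matrix sugars and guide cells carrying matching G protein-coupled receptors up their gradients. Lymphatic vessels are known for releasing chemokines that draw dendritic cells and lymphocytes out of the tissue by way of the receptor CCR7. The ligands of leukocytes, keratinocytes and inflamed endothelium recruit monocytes, neutrophils and T cells into skin and tumours. Many inflammatory chemokine genes are switched on through NF-kappaB sites, and the CXCR3 ligands through interferon response elements.

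The promoters of 4 ligands on chromosome 5 are shown because single arrays set their values. On their brightest probe sets Cxcl9, Cxcl10 and Cxcl13 were highest in 1 tumour sample and Cxcl1 in 1 healthy-skin sample. Each run is the 250 bases before the start site from RefSeq (GRCm38.p6), written 5′ to 3′ on the strand of the gene, with motif matches in capitals.
Cxcl9: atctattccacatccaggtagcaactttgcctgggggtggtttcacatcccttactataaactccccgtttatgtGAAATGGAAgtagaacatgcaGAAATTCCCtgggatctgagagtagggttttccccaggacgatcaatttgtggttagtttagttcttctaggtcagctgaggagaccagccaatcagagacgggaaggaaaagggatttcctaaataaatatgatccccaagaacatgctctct
Cxcl10: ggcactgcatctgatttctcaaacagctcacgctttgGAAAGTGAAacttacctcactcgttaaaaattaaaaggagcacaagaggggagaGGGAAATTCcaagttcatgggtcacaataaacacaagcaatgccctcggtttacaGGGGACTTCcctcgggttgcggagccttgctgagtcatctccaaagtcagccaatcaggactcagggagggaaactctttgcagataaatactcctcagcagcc
Cxcl13: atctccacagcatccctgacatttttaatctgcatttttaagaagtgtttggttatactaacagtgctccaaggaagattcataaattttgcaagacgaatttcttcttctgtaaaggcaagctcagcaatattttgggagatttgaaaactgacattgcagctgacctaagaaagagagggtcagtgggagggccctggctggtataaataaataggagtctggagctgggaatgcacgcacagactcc
Cxcl1: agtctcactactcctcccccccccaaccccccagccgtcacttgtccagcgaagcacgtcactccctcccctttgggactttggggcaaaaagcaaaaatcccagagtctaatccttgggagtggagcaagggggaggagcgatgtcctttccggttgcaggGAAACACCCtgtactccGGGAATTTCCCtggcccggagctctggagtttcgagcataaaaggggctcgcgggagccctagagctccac
They lie at chr5:92328080-92328329 and chr5:92348890-92349139 on the minus strand, and at chr5:95956689-95956938 and chr5:90890995-90891244 on the plus strand. The motifs searched on both strands were GGGNNNTTC, a short form of the NF-kappaB site, and GAAANNGAA, a short form of the interferon-stimulated response element. Cxcl10 held 2 matches to the first, starting at -159 and -104 from the start site, and 1 to the second, at -213. Cxcl9 held 1 match to each, at -154 and -175. Cxcl1 held 3 matches to the NF-kappaB form, of which those starting at -71 and -69, on opposite strands, overlap. Cxcl13 held neither form in this window. Of the 36 members with a listed promoter, 13 held the NF-kappaB form, against 11.8% of 32851 promoters, and 6 held the interferon form, against 7.13%. With 1 more base of the consensus on each form, the counts were 8 against 4.65% and 2 against 2.98%, and Cxcl9 had no match. A match describes letters and not a bound site.

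All values are log2 intensities, compared as the tumour mean minus the healthy-skin mean with limma, and adjusted by Benjamini-Hochberg over all probe sets. A probe set was read as above background where it exceeded, on its array, the 95th percentile over 27 probe sets for bacterial control RNA, a level between 2.96 and 3.91. Lymphatic markers were present in both groups. All 6 measured lymphatic markers were above background on 5 of 6 arrays, and Lyve1 (3.21) was below background on healthy-skin array 1. Their summed intensity ran from 481 to 1201 in healthy skin and from 2114 to 2493 in tumours. Other cells were present too. The summed intensity of 9 keratinocyte markers was 3228 to 4069 in healthy skin and 216 to 2262 in tumours. That of 6 fibroblast markers was 8543 to 22449 in healthy skin, and 12720, 14489 and 1241 in tumour samples 1, 2 and 3. That of 6 pericyte and smooth muscle markers was 551 to 882 in healthy skin, and 1759, 1698 and 321 in the same tumour samples. That of 10 macrophage markers was 904 to 1338 in healthy skin, and 1088, 6184 and 1585 in tumour samples 1, 2 and 3, so tumour sample 2 stands apart. A lower level in a captured sample can reflect fewer cells of a type or less RNA per cell, which cannot be told apart.

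**Figure D1:**
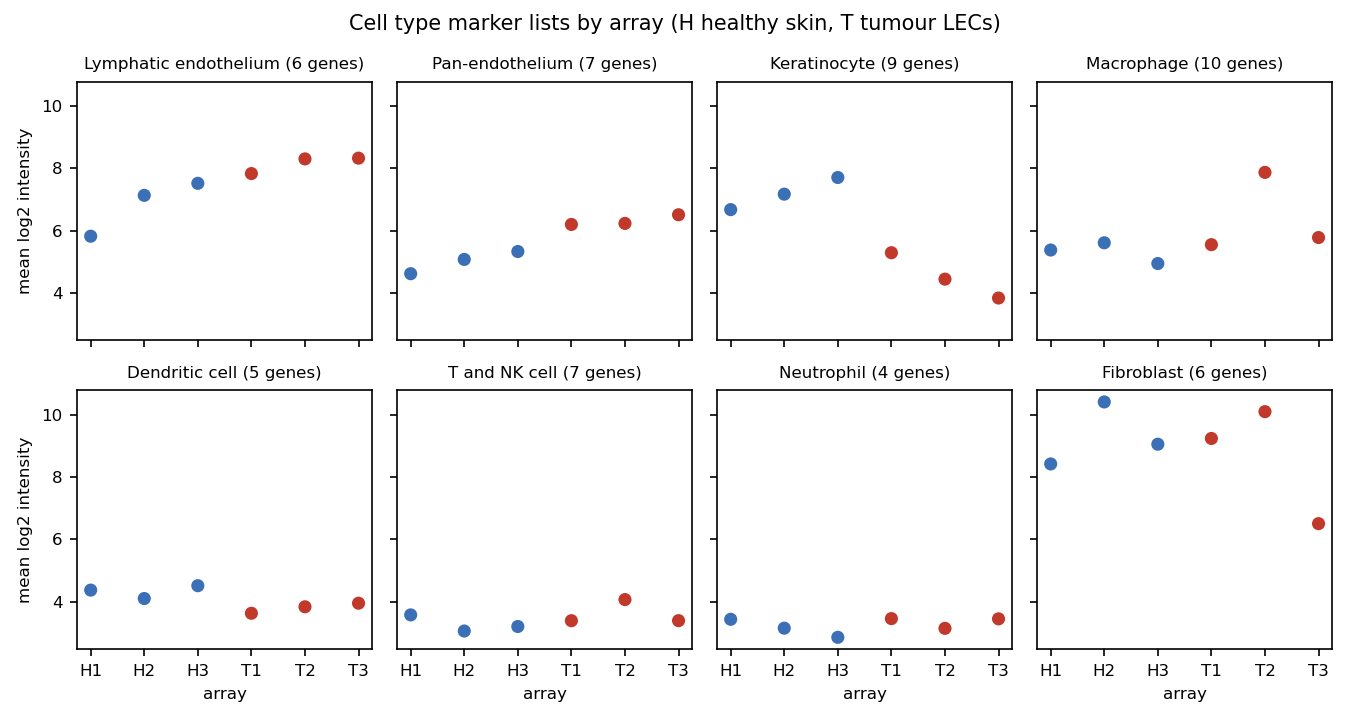
Mean log2 intensity of 8 marker lists on each array (y axis), with healthy-skin arrays H1 to H3 in blue and tumour arrays T1 to T3 in red (x axis); each point is 1 array. Macrophage markers reach 7.87 on tumour array 2 against 4.95 to 5.78 on the other arrays, while neutrophil markers stay between 2.86 and 3.46.

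No chemokine or receptor gene passed the test for a difference between tumour and healthy-skin LECs when p-values were adjusted over all probe sets. Of the 49 genes, 0 passed an adjusted p of 0.05 in limma (0.0055% of all genes did), and the smallest adjusted p was 0.735. Of their 76 probe sets, 0 passed (0.00444% of all probe sets did), 2 were higher at an unadjusted p of 0.05 against 2.83%, and 1 was lower against 3.53%. Groups did not overlap in 5 probe sets that were higher, against 6.22%, and in 2 that were lower, against 4.91%. At an unadjusted p of 0.05, 1 gene was higher (Ccl3), against 3.22% of all genes, and 0 were lower, against 4.28%. Tumour and healthy-skin values were fully separate in 4 genes that were higher in tumours (Cxcl14, Ccl3, Ccl8 and Xcr1), against 6.58% of all genes, and in 0 that were lower, against 5.36%. These shares are near or below the background. The difference was positive in 28 of 49 members, close to 57.3% of all genes. Its median was 0.18 over the ligands and 0.04 over the receptors, beside 0.08 over all genes. The intervals of single genes were often wide, and standard errors ran from 0.26 to 1.48 log2 units, so the wider intervals include several-fold differences in either direction.

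**Figure D2:**
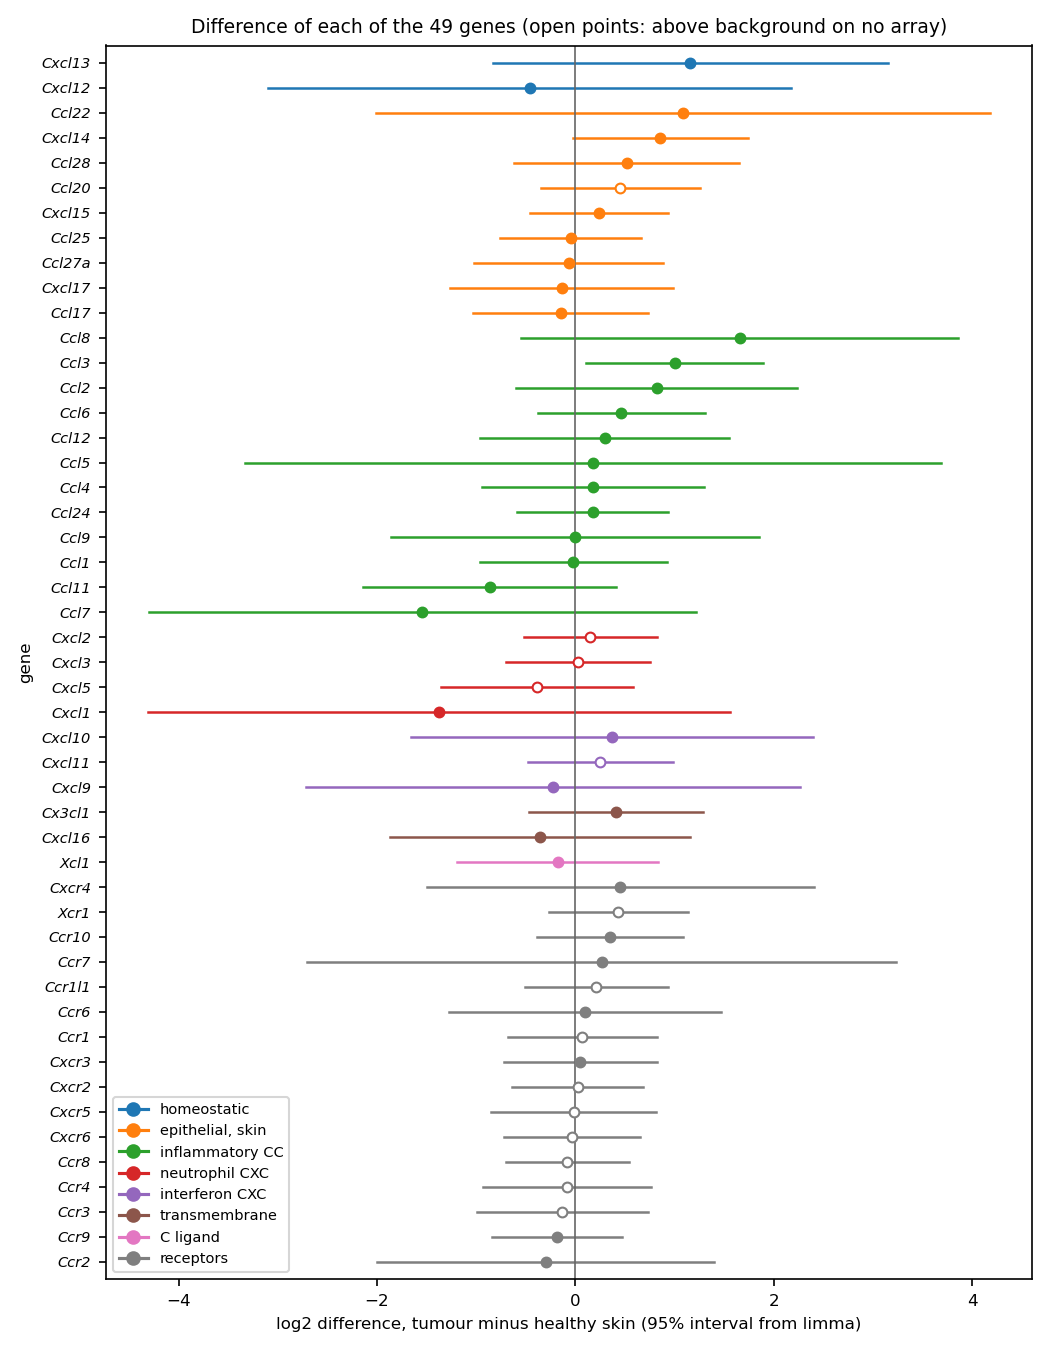
Log2 difference of each of the 49 genes (x axis, tumour minus healthy skin) with its 95% interval from limma (bars), by gene (y axis) and coloured by role; open points mark genes above background on no array. The interval excludes 0 for Ccl3 alone, from 0.11 to 1.89.

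Signal above background was found for ligands and for few receptors. Among the ligands 15 of 33 were above background on all 6 arrays and 5 on none, and among the receptors 4 of 16 on all and 9 on none. Over all genes the shares were 42.8% and 23.4%. The receptors above background throughout were Cxcr4, Ccr6, Cxcr3 and Ccr9. Of these Cxcr3 (3.66 to 4.59) and Ccr9 (3.91 to 4.47) lay close to background, against 6.35 to 9.69 for Cxcr4. Ccr9 was above it throughout on its brightest probe set alone. For the genes above background on no array the values are upper bounds of a level, and their differences carry little information.

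Homeostatic ligands place immune cells in resting tissue, and of these Cxcl12 and Cxcl13 were measured by probe sets of their own. Cxcl12, the stromal ligand of CXCR4, had 5.53, 4.55 and 6.37 in healthy skin and 5.40, 7.09 and 2.59 in tumours. The tumour values held both the highest and the lowest of the 6, and the last was below its array's background. The difference was -0.46 with a standard error of 1.11 (limma adjusted p = 0.963), and a second probe set, 1448823_at, had 4.81, 7.16 and 2.46 in the same 3 tumour samples and differed by 0.21. On tumour array 3 the fibroblast markers were also lowest, with a mean of 6.51 against 8.42 to 10.41 elsewhere. The part of these cells in the Cxcl12 values was not tested. Cxcl13, which attracts B cells by way of CXCR5, had 4.87, 4.38 and 3.70 in healthy skin and 4.27, 7.45 and 4.72 in tumours. Only tumour sample 2 stood out, by 2.58 above the next array, and the other probe set of Cxcl13 had 5.65 in that sample and at most 2.93 elsewhere. The difference of 1.16 (standard error 0.84, limma adjusted p = 0.872) shrank to 0.18 without tumour sample 2.

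Among the 9 ligands of skin and other epithelia, 5 had positive differences and none had an unadjusted p under 0.05. Cxcl14, made by resting epithelia and fibroblasts, came closest, with 5.76, 5.32 and 4.62 in healthy skin and 5.77, 6.33 and 6.17 in tumours. All 3 tumour values lay above the healthy-skin values, the nearest pair by 0.02. Means were 5.23 ± 0.57 and 6.09 ± 0.29 (SD, n = 3 arrays per group), a difference of 0.86 with a 95% interval from -0.02 to 1.74 (limma adjusted p = 0.794). The second Cxcl14 probe set differed by 1.27 with groups that overlapped. On the same arrays keratinocyte markers had means of 6.68 to 7.71 in healthy skin and 3.84 to 5.30 in tumours. Fibroblast markers had means of 8.42 to 10.41 in healthy skin and 9.24, 10.10 and 6.51 in tumours. The part of these cells in the Cxcl14 values was not tested.

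The remaining skin ligands kept to a narrow range or followed single samples. Ccl27a, the keratinocyte ligand of CCR10, had 4.50, 3.43 and 3.71 in healthy skin and 3.41, 3.69 and 4.34 in tumours. On this probe set the groups overlapped fully (difference -0.07, interval -1.02 to 0.89). Brighter probe sets that list Ccl27a among several symbols differed by -1.23 and -1.30 and are given under other observations. Ccl28, an epithelial ligand of the same receptor, had 5.28, 4.40 and 3.95, then 5.30, 4.34 and 5.55 (difference 0.52, interval -0.61 to 1.65). Ccl20, which draws CCR6-bearing cells to epithelium, was above background on no array, with values from 2.35 to 3.54. Ccl22, a ligand of CCR4 made by dendritic cells and macrophages, had 5.61, 3.27 and 3.74 in healthy skin and 3.71, 8.31 and 3.84 in tumours. Its high values were tumour sample 2 and, more weakly, healthy-skin sample 1, and the difference of 1.08 turned to -0.43 without tumour sample 2. Ccl17, the other CCR4 ligand, did not share this pattern and had 5.0, 5.09 and 5.03 in tumours against 4.98, 4.68 and 5.91 in healthy skin. Ccl25, Cxcl15 and Cxcl17 differed by between -0.14 and 0.24.

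Inflammatory CC ligands recruit monocytes, T cells and eosinophils, and of the 12 measured 8 had positive differences, with a median of 0.18. Ccl3, released by activated macrophages, had 2.30, 2.52 and 1.84 in healthy skin and 2.97, 3.85 and 2.85 in tumours. Every tumour value was above every healthy-skin value, but only tumour sample 2 exceeded its array's background. The difference was 1.00 with a standard error of 0.38 (unadjusted p = 0.0329, limma adjusted p = 0.735), between levels that are bounds in healthy skin. Ccl4, its neighbour on chromosome 11 with similar actions, was above background on all arrays and had 6.37, 5.02 and 4.63, then 5.60, 5.53 and 5.43 (difference 0.18). The tumour samples of Ccl4 thus lay within 0.17 of each other and inside the healthy-skin range.

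Ccl8 had the largest positive difference of all 49 genes. This ligand of monocytes and T cells had 3.79, 3.36 and 3.22 in healthy skin, close to background, and 4.03, 7.43 and 3.90 in tumours. The groups did not overlap, although the gap between them was 0.10 and tumour sample 2 alone stood far above the rest. The difference of 1.66 (standard error 0.93, limma adjusted p = 0.86) was 0.50 without that sample. Ccl5, made by T cells, NK cells and macrophages, showed the widest range of any member, 5.63 log2 units. Its values were 5.60, 6.01 and 4.84 in healthy skin and 3.81, 9.40 and 3.77 in tumours. Tumour samples 1 and 3 were thus below all healthy-skin samples and tumour sample 2 above them. The difference was 0.18 (interval -3.33 to 3.69), and without tumour sample 2 it was -1.69 (standard error 0.43, unadjusted p = 0.00799, limma adjusted p = 0.46).

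The ligands of CCR2 had differences of both signs. Ccl2, the main monocyte attractant, had 4.34, 3.91 and 6.20 in healthy skin and 5.47, 5.57 and 5.88 in tumours. The tumour values were close together and above 2 of the 3 healthy-skin samples, and the difference was 0.82 (interval -0.60 to 2.24). Without healthy-skin sample 3 it was 1.51 (unadjusted p = 0.00354, limma adjusted p = 0.546), and without healthy-skin sample 2 it was 0.37 (limma adjusted p = 0.987). With 1 of the other arrays left out it lay between these values. Ccl7, a related monocyte attractant, had 7.73 in healthy-skin sample 1 but 2.86 and 3.98 in samples 2 and 3, and 3.28, 3.62 and 3.05 in tumours. That 1 array set the difference of -1.54 (standard error 1.16), which was -0.10 without it. On the same array Rgs1, a brake on chemokine receptor signalling in leukocytes, reached 11.15 against at most 8.11 elsewhere. The platelet chemokine gene Ppbp reached 6.78 against at most 1.89, and the macrophage marker Cd68 9.55 against at most 6.88. Over the 10 macrophage markers the mean was 5.38 on this array, within the 4.95 to 7.87 of the others. Of these markers Ms4a7 (2.52) and C1qb (6.57) were lowest on this array. The part of other cells in this array was not tested. Ccl12 was above background on 1 array.

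Ccl11, the eosinophil attractant eotaxin, had 5.39, 6.58 and 4.60 in healthy skin and 4.17, 4.94 and 4.88 in tumours. Tumour sample 1 was the lowest of the 6 and the other tumour samples lay inside the healthy-skin range, with a difference of -0.86 (interval -2.14 to 0.41). It was -0.33 without healthy-skin sample 2, -1.33 without healthy-skin sample 3 and -1.51 with array weights. Ccl6, a myeloid ligand of CCR1, had 4.83, 5.04 and 3.98, then 5.23, 5.13 and 4.88 (difference 0.46, standard error 0.36). Ccl9, which also binds CCR1, had 6.92, 5.60 and 6.19 in healthy skin and 5.44, 8.01 and 5.25 in tumours. On this probe set its mean was the same in both groups to within 0.01. Tumour sample 2 was above and the other tumour samples below the healthy-skin samples. A dimmer Ccl9 probe set, 1448898_at, had 3.73, 3.56 and 3.49, then 3.79, 3.10 and 3.53, and was lowest in tumour sample 2. Ccl1 and Ccl24 differed by -0.02 and 0.18.

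**Figure D3:**
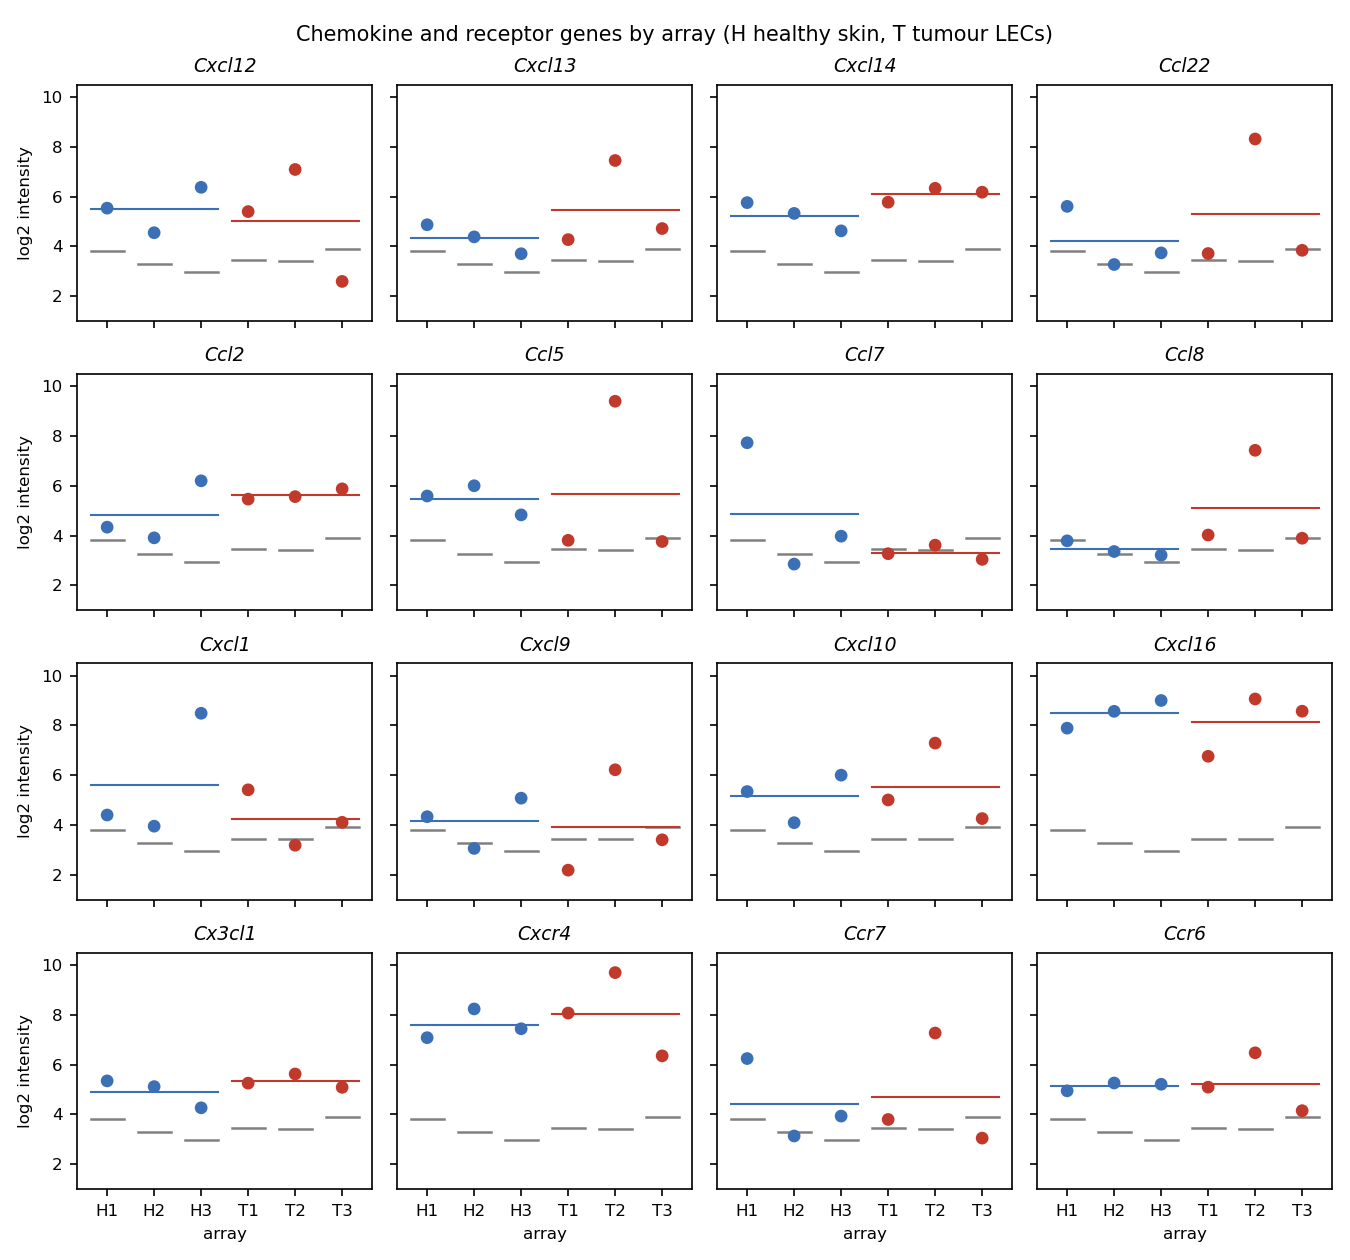
Log2 intensity (y axis) of 16 genes on the 3 healthy-skin arrays (blue) and the 3 tumour arrays (red); each point is 1 array, coloured lines are group means and grey ticks the background of each array. Tumour array 2 is highest for Ccl5 (9.40), Ccl22 (8.31) and Ccl8 (7.43), while Cxcl1 peaks on healthy-skin array 3 and Ccl7 on healthy-skin array 1.

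Of 4 neutrophil-attracting ligands of CXCR2, 1 was above background. Cxcl2, Cxcl3 and Cxcl5 were above background on no array, with values between 0.77 and 2.53. Cxcl1, which is released by keratinocytes and inflamed endothelium, had 4.40, 3.95 and 8.49 in healthy skin and 5.41, 3.19 and 4.11 in tumours. Healthy-skin sample 3 stood 3.07 above the next array, and all 3 Cxcl1 probe sets were highest there (8.49, 6.18 and 6.62). The difference was -1.38 (standard error 1.23, limma adjusted p = 0.886) and 0.06 without that sample. The interleukin-1 gene Il1b and Nfkbia, the NF-kappaB inhibitor that NF-kappaB itself induces, were also highest in healthy-skin sample 3, at 8.78 and 10.33 against at most 5.38 and 9.33. The neutrophil markers had a mean of 2.86 in this sample, the lowest of the 6, as was the background of its array (2.96). By count, 2 of the 4 neutrophil markers were above background there, against 1 or 2 on each of the other arrays. S100a8 was above background on no array. Whether these genes share a source in this sample was not tested.

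The interferon-induced ligands of CXCR3 call T cells and NK cells, and their values varied by sample more than by group. Cxcl10 had 5.35, 4.09 and 6.0 in healthy skin and 5.01, 7.29 and 4.26 in tumours. Cxcl9 had 4.33, 3.06 and 5.08, then 2.19, 6.22 and 3.41. In these values of both genes tumour sample 2 was highest and healthy-skin sample 3 next. The other tumour samples were within or below the healthy-skin range. The differences were 0.37 for Cxcl10 (interval -1.66 to 2.40) and -0.22 for Cxcl9 (interval -2.71 to 2.27), and without tumour sample 2 they were -0.51 and -1.36. A dimmer Cxcl9 probe set, 1456907_at, did not share this order. It had 4.15, 3.45 and 3.26 in healthy skin and 3.12, 3.75 and 3.03 in tumours (difference -0.32). Cxcl11 was above background on no array.

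The transmembrane ligands, which can hold leukocytes on the endothelial surface or be shed, were present on all arrays. Cxcl16, the ligand of CXCR6, which also takes up oxidised lipoprotein, had 7.89, 8.57 and 9.0 in healthy skin and 6.76, 9.06 and 8.57 in tumours. Apart from tumour sample 1 the samples lay within 1.17 of each other, and the difference was -0.35 (interval -1.87 to 1.16). The second Cxcl16 probe set differed by 0.62 in the other direction. Cx3cl1, the adhesive chemokine fractalkine, had 5.35, 5.11 and 4.26, then 5.25, 5.62 and 5.09 (difference 0.41, interval -0.46 to 1.29). Cx3cl1 differed by 0.63 without healthy-skin sample 1, by 0.09 without sample 3, by 0.26 without tumour sample 2 and by 0.06 as the mean over its probe sets. Of its 4 probe sets 3 had positive differences. The fourth, 1441884_x_at, had tumour values below all healthy-skin values (-0.71) and stayed under background. Xcl1, the ligand of cross-presenting dendritic cells, exceeded background on 1 array.

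The receptors are leukocyte genes for the most part, with Cxcr4 also found on endothelium. On its brightest probe set none of the 16 had an unadjusted p under 0.05. Cxcr4, the receptor of CXCL12, had 7.08, 8.23 and 7.44 in healthy skin and 8.07, 9.69 and 6.35 in tumours. Tumour samples 2 and 3 were the highest and the lowest of the 6, in the same order as the ligand Cxcl12 in those samples. The difference was 0.45 (interval -1.50 to 2.40) and -0.38 without tumour sample 2. Ccr7, by which dendritic cells and T cells enter lymphatic vessels, had 6.24, 3.13 and 3.93 in healthy skin and 3.80, 7.27 and 3.05 in tumours. It was high in healthy-skin sample 1 and tumour sample 2, the samples in which Ccl22 was also highest. The difference of 0.27 had an interval from -2.70 to 3.24, and it was -1.01 without tumour sample 2. Ccr6, the receptor of CCL20, had 4.95, 5.26 and 5.21, then 5.09, 6.47 and 4.15 (difference 0.10).

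Receptors of resident or recruited cells gave flat signals, signals near or below background, or differences that varied between probe sets. Cxcr3, the receptor of the interferon-induced ligands, had 4.59, 4.19 and 3.66 in healthy skin and 4.23, 4.33 and 4.04 in tumours (difference 0.05, interval -0.72 to 0.82). Ccr10, the receptor of CCL27 and CCL28, had 3.72, 3.00 and 3.16, then 3.46, 3.60 and 3.88, near background throughout (difference 0.35). Xcr1 had tumour values above all healthy-skin values (3.07, 3.06 and 3.53 against 2.91, 2.96 and 2.48) but exceeded background on no array. Ccr2, the monocyte receptor of CCL2, had 4 probe sets. The one with the highest mean had 3.16, 5.50 and 5.27 in healthy skin and 3.55, 5.18 and 4.31 in tumours (difference -0.30). Another, 1421188_at, had 2.89, 3.48 and 5.13 against 1.63, 2.35 and 2.12, with no overlap (difference -1.80, unadjusted p = 0.0193, limma adjusted p = 0.689), and no tumour value above background. The remaining Ccr2 probe sets gave -1.20 with overlap (1421186_at) and 0.40 (1460067_at, above background on no array). For Ccr9 the 5 probe sets ranged from -0.49 to 0.90. The highest difference was that of 1427419_x_at, with no overlap (limma unadjusted p = 0.0221, limma adjusted p = 0.709). This probe set was above background on no array.

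Tumour sample 2 held the highest value of many members. It was the highest of the 6 arrays for 18 of 49 members, against 13.0% of all genes, and for 14 of the 30 with a mean above the mean background, against 15.3% of such genes. Healthy-skin sample 1 was the highest for 15 of 49 members, against 21.4% of all genes. The range over the 6 arrays exceeded 3 log2 units in 11 members, against 12.7% of all genes. In 10 members tumour sample 2 exceeded every other array by over 1 log2 unit, against 3.21% of all genes. These were the ligands Ccl5, Ccl8, Ccl9, Ccl22, Cxcl9, Cxcl10 and Cxcl13 and the receptors Ccr6, Ccr7 and Cxcr4. On their dimmer probe sets Cxcl13 shared this excess, and Ccl9 and Cxcl9 did not. Counts for healthy-skin samples 1, 2 and 3 were 2, 1 and 1, against 1.63%, 3.07% and 3.46% of all genes. For tumour samples 1 and 3 they were 0 and 0, against 1.17% and 1.57%. The genes were Ccl7 and Cxcl5 (the latter below background) in healthy-skin sample 1, Ccl11 in sample 2 and Cxcl1 in sample 3. The count was made after the values were seen and has no test.

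Some leukocyte markers were also highest in this sample. Macrophage markers had a mean of 7.87 there and were all 10 above background, as on healthy-skin array 2, with C1qc at 8.55 against at most 5.13, and Cd163 at 9.69 against at most 6.75. Cd68 and Mrc1 were highest in healthy skin. Of the T and NK cell markers 4 of 7 were above background in tumour sample 2 and 2 to 5 in the others. Their summed intensity was 155, against 66 to 101 in healthy skin and 83 and 85 in the other tumour samples. Cd3e (4.89) and Gzma (4.73) were above background in this sample alone, and Cd8a (5.90) was also highest there. Cd3d, Cd3g and Nkg7 were highest on other arrays, and Cd4 (3.20) was lowest in this sample. B cell and dendritic cell markers were not higher there, with Ms4a1, Cd79b and Cd209a above background on no array. Without tumour sample 2 the median over the 33 ligands was 0.01 and that over the 16 receptors 0.00, beside 0.12 over all genes. The part of macrophages or of the other cells in these values was not tested.

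**Figure D4:**
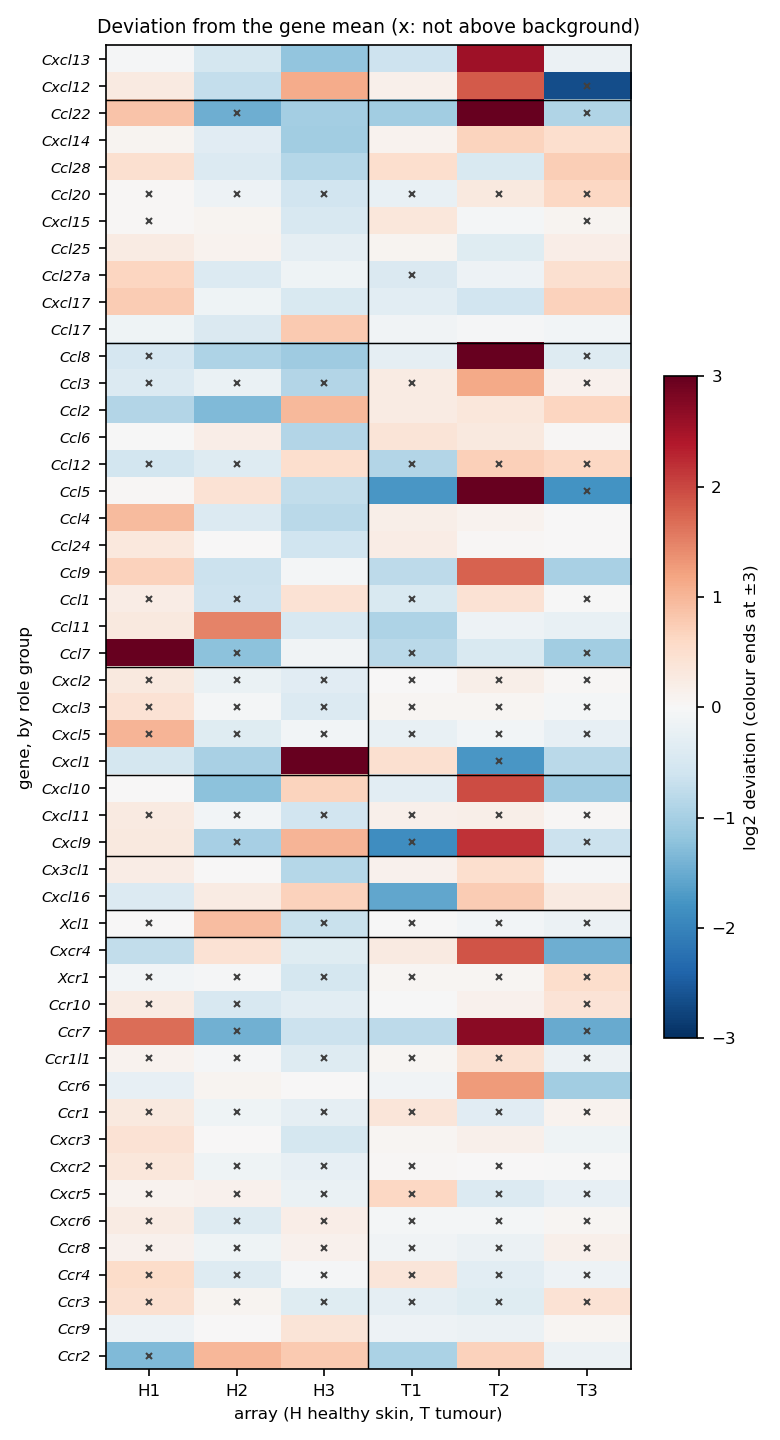
Deviation of each of the 49 genes (y axis, ordered by role group) from its mean over the 6 arrays, in log2 units (colour, ending at 3 in either direction), by array (x axis); crosses mark values not above background. Most of the darkest red cells lie in the column of tumour array 2, beside single cells for Ccl7 on healthy-skin array 1 and Cxcl1 on healthy-skin array 3.

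Position and probe set gave the members little in common. The largest groups were 14 members on chromosome 11, with differences from -1.54 to 1.66, 10 ligands on chromosome 5, from -1.38 to 1.16, and 10 receptors on chromosome 9, from -0.30 to 0.44. Neighbours on chromosome 11 had differences of both signs, with Ccl7 at -1.54 and Ccl11 at -0.86 beside Ccl2 (0.82) and Ccl8 (1.66). Each of their intervals included both signs. Ccl7 was -0.10 without healthy-skin sample 1 and Ccl8 0.50 without tumour sample 2. Of 17 members with more than 1 probe set 9 had differences of both signs. The 3 probe sets of Cxcl1 (-1.38 to -0.97) and both of Cxcl13 (0.94 and 1.16) and Cxcl14 (0.86 and 1.27) had the same sign.

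Other genes of the chemokine pathway, 54 of which were measured, comprise decoy receptors, G proteins, arrestins, matrix sugar enzymes and inducers. Of these 0 passed the threshold in limma, against 0.0055% of all genes, and 36 had positive differences, against 57.3%. At an unadjusted p of 0.05 there were 4 higher, against 3.22%, and 1 lower, against 4.28%. Ackr2, a decoy receptor that clears inflammatory CC chemokines from lymphatic surfaces, had 5.37, 5.67 and 4.85 in healthy skin and 7.41, 8.03 and 8.14 in tumours. These groups lay 1.73 apart and differed by 2.56 (limma adjusted p = 0.185). The 2 dimmer Ackr2 probe sets gave 0.57 and 0.60. Gnai2, an inhibitory G protein subunit that chemokine receptors couple to, had a difference of 1.90 with a limma adjusted p of 0.527, and 0.92 on a second probe set. Other subunits of this type had negative differences, none of which passed the threshold. Gnai1 had -1.82 (standard error 0.83) on its brightest probe set, where the groups overlapped. Its other probe sets gave -0.06 and -3.22 (limma adjusted p = 0.206). Gnai3 had -0.47 (standard error 0.44), also with overlap. Elmo1, which links receptors to cell movement through Rac, had a difference of 1.47 with a limma adjusted p of 0.596, while a further probe set gave -1.22. Sdc1, a heparan sulfate proteoglycan of epithelium that binds chemokines, had a difference of -2.53 with a limma adjusted p of 0.557. The remaining Sdc1 probe sets gave 1.02, 0.33 and -1.08.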

How the data were processed

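Expression was measured on 6 mouse expression arrays, 3 per group, from laser-captured LECs. The authors deposited linear intensity values per probe set that had been normalized by RMA, per the submitters' processing notes. No software or version beyond that is recorded there, and arrays carry no read depth, so the number of arrays limits the precision. The log2 of the deposited intensity was taken without a pseudocount. After 64 control probe sets were left out, 45037 were tested in limma 3.58.1 under R 4.3.3 (linear model with moderated variances, no covariates, two-sided, adjusted by Benjamini-Hochberg at 0.05). Of these, 34945 had 1 symbol, 932 several and 9160 none in the platform annotation, and each gene was represented by the single-symbol probe set with the highest mean over the 6 arrays. All 49 members matched RefSeq by Entrez ID.

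The members and lists were chosen with earlier results of these data known. Genes were named by rule: the 12 members with the smallest p, those whose groups did not overlap, members with textbook roles in lymphatic vessels, skin or tumours, and the 4 pathway genes with the smallest p. Ccl4, Ccl9, Ccl17, Ccl22, Ccr2, Ccr6, Ccr9, Gnai1, Gnai3, Il1b, Nfkbia, Ppbp and Rgs1 were described after their values were seen. Replicate numbers were not used as pairs, since the correlations of same-numbered deviations were 0.04, 0.10 and -0.01. Alternatives were quantile normalization, median centring, log2(value + 8), a filter on dim probe sets, the replicate block, trend and robust options, array weights, the hybridization-control level as covariate, the mean over a gene's probe sets, and leaving out each array. The promoter motifs were shortened to 9 bases after longer forms had been searched. Blood endothelial cells, which the design text names, were not analysed here.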

Additional observations from a re-analysis of the deposited data

How the results depend on the processing

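In each of the 15 alternatives, 0 members passed the adjusted threshold in limma, and 11 of the 23 named members kept their direction in all that gave a value. The number of probe sets called, 2 as reported, was 21 with dim probe sets left out, 22 with array weights, 1 with trend and robust options, and 0 with median centring, log2(value + 8), the hybridization-control covariate or the replicate block. Leaving out 1 array gave 0 to 23, the highest without tumour sample 2. Members higher at an unadjusted p of 0.05, 1 as reported, were 0 without dim probe sets or with array weights, 2 with median centring or the gene mean, and 0 to 1 with 1 array left out. Members lower, 0 as reported, were 1 with array weights, 2 with the covariate and 0 to 1 with 1 array left out. The covariate moved the median of all genes from 0.08 to -0.12 and that of the receptors from 0.04 to -0.14. With 1 array left out the receptor median ran from -0.01 to 0.19 and the ligand median from 0.01 to 0.32.

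Directions turned as follows, and the cause was not tested. Cxcl9 was 0.00078 with log2(value + 8). Array weights gave -0.80 for Ccl5 and 0.046 for Cxcl12. The covariate gave -0.044 for Ccr10, -0.49 for Ccl28, 0.86 for Cxcl9, 0.97 for Cxcl12, 0.47 for Cxcl16 and -0.21 for Cxcr3. The gene mean gave 0.13 for Cxcl16. With 1 array left out, ranges were -0.33 to 0.24 for Ccl27a, -0.51 to 1.00 for Cxcl10, -1.01 to 1.17 for Ccr7, -1.69 to 1.13 for Ccl5, -2.21 to 0.059 for Cxcl1, -1.36 to 0.66 for Cxcl9, -0.19 to 0.28 for Cxcr3, -0.82 to 0.33 for Cxcl16, -0.38 to 1.30 for Cxcr4 and -1.49 to 0.76 for Cxcl12. With the replicate block the smallest adjusted p of a member was 0.65 in limma, and samples did not all correlate best with their own number. Ccl3, Ccl20 and Xcr1 had no value without dim probe sets, and 14 members above background on no array have only bounds.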

Other observations

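Several chemokines have near-identical gene copies, and their probe sets carry several symbols, so they name no single gene and were not counted above. The probe set 1419426_s_at, which lists 9 symbols that include the Ccl21 copies, the lymphatic ligands of CCR7, had 9.33, 8.10 and 10.07 in healthy skin and 10.90, 11.85 and 9.65 in tumours. Only the lowest tumour value lay inside the healthy-skin range, and the difference was 1.63 (interval -0.03 to 3.30, limma adjusted p = 0.789). The probe set 1449277_at, which includes the Ccl19 copies, had 6.84, 5.57 and 6.65, then 5.25, 7.04 and 4.84 (difference -0.65). Of those with Ccl27 copies, 1430375_a_at had 5.25, 4.69 and 6.36 in healthy skin and 4.49, 3.53 and 4.57 in tumours, with no overlap. Its difference was -1.23 (interval -2.46 to -0.01, limma adjusted p = 0.780). The other, 1419188_s_at, had 4.76, 6.11 and 7.55, then 4.98, 5.13 and 4.43 (difference -1.30, interval -2.92 to 0.33, limma adjusted p = 0.848). Keratinocyte markers were also lower in tumours, and their part in these values was not tested.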
